A study of Mus musculus with 24 samples.

Results

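Tirzepatide (TZP) was compared with free feeding on vehicle (Vehicle) in brown adipose tissue, using 12 of the 24 libraries in the series: TZP 1 to 6 and Vehicle 1 to 6. Each library was made from polyA RNA of brown adipose tissue of C57BL/6J mice, a strain that both groups share. The remaining groups, LAGIPRA and PairFedVehicle with 6 libraries each, entered only the shared estimate of the spread between libraries. The series title speaks of obese insulin-resistant mice, while diet, age, sex, dose and duration of treatment are not given in these sources. The comparison asks how the tissue of mice given tirzepatide differs from that of mice given vehicle and not pair-fed, so an effect of the drug and an effect of any difference in food intake or body weight cannot be told apart in it. Nothing in the labels says which libraries came from separate animals, so the p-values measure the spread between these libraries only.

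Brown adipose tissue burns fuel to make heat. Its adipocytes are packed with mitochondria whose inner membrane carries Ucp1, a protein that lets protons return without making ATP, and the respiratory chain, fatty acid oxidation and glucose uptake feed that process. Noradrenaline acting through beta adrenoceptors and cAMP drives it, while capillaries, pericytes, nerves, macrophages and a collagen and laminin matrix surround the adipocytes. Tirzepatide is a peptide that activates the receptors for the incretin hormones GIP and GLP-1, which raise insulin secretion and lower food intake.

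Of 17263 genes tested, 3805 passed an adjusted p of 0.05 in limma: 2021 (11.7%) were higher and 1784 (10.3%) were lower in TZP libraries. The 6 TZP and the 6 Vehicle libraries did not overlap for 940 genes (5.45%), 586 of them higher (3.39%) and 354 lower (2.05%). Genes of mitochondrial respiration, translation and import were among those that rose, and basement membrane, immediate early and cytokine genes among those that fell. The median log2 difference over all tested genes was 0.04, and the median standard error (SE) of a difference was 0.150. Each SE rests on a spread shared by the 4 groups of the series. For genes that vary more among TZP libraries than in the other groups, SE and p-value therefore understate the TZP spread. Values are on the log2 scale throughout, and a difference is TZP minus Vehicle in log2 units.

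The 6 TZP libraries were not alike. Each library's deviation from the mean of the 12 TZP and Vehicle libraries was regressed on log2 transcript length. The slopes were 0.0290 in TZP 1 and 0.0309 in TZP 2, against -0.0533 in TZP 3, -0.0773 in TZP 4, -0.106 in TZP 5 and -0.154 in TZP 6. The Vehicle slopes ran from 0.0254 through a median of 0.0635 to 0.0692. TZP 3 to 6 thus lay below every Vehicle library, and TZP 1 and 2 within the Vehicle range, though above only Vehicle 5 (0.0254). The next lowest Vehicle slope was 0.0404, in Vehicle 6. The group means differed by -0.110, given with no test because the trend was known when the comparison was chosen. In the longest of 10 bins of genes by transcript length, of median length 7632 bases, the median difference was -0.06 over TZP 1 and 2 and -0.49 over TZP 3 to 6, and 42.3% of these genes were called lower. In the shortest bin, of median length 473 bases, it was 0.01 over TZP 1 and 2 and 0.18 over TZP 3 to 6. Genes called higher had a median transcript length of 2113 bases and genes called lower 5615 bases, against 2914 bases for all tested genes. What part of any difference below belongs to transcript length was not tested beyond the corrected values given beside it.

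**Figure D1:**
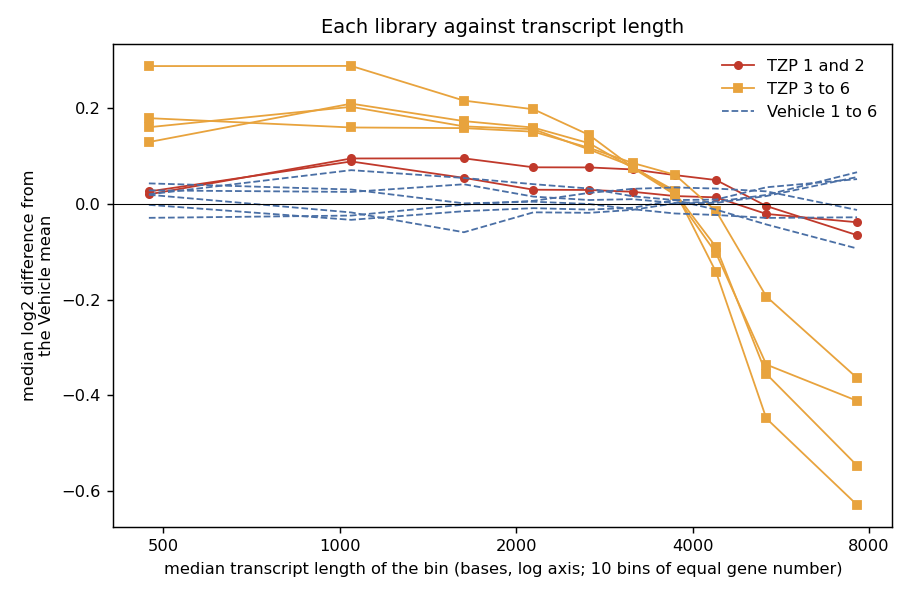
Median log2 difference from the Vehicle mean (vertical axis) in 10 bins of genes ordered by transcript length in bases (horizontal log axis), with a line for each of the 6 TZP and 6 Vehicle libraries. TZP 3 to 6 bend down to between -0.36 and -0.63 in the longest bin, while TZP 1 and 2 stay at -0.07 and -0.04 there, close to the Vehicle libraries.

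For this reason each of 124 gene families was read separately over TZP 1 and 2 and over TZP 3 to 6, both against the same 6 Vehicle libraries. The libraries of a family agree where its median difference lies at least 0.1 from 0, on the same side, in both. By that measure 55 families agreed, 29 higher and 26 lower. A further 28 families reached 0.1 only over TZP 1 and 2, 18 only over TZP 3 to 6, 21 in neither, and 2 had opposite signs. The 12 families that were lower only over TZP 3 to 6 had a median transcript length of 4697.5 bases. Taken alone against Vehicle, TZP 1 and 2 gave 817 called genes, 3.15% of those tested higher and 1.58% lower, and TZP 3 to 6 gave 4072, 10.6% higher and 13.0% lower, from unequal numbers of libraries. Library medians over all tested genes were themselves apart, from 0.03 to 0.08 in TZP and from -0.005 to 0.02 in Vehicle. A family whose TZP libraries all lie above Vehicle by a small margin shares this with all tested genes. All 2021 genes called higher had a positive difference in both, and 198 of the 1784 called lower had a positive difference over TZP 1 and 2. The calls rest on these same libraries, and both parts share the 6 Vehicle libraries, so matching signs are no independent support. Of all tested genes, 67.5% had the same sign in both. When each library was corrected for length by a smooth curve, a step chosen after seeing the data, 2782 of 15407 genes were called (9.63% higher and 8.43% lower), and families that agreed numbered 39.

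**Figure D2:**
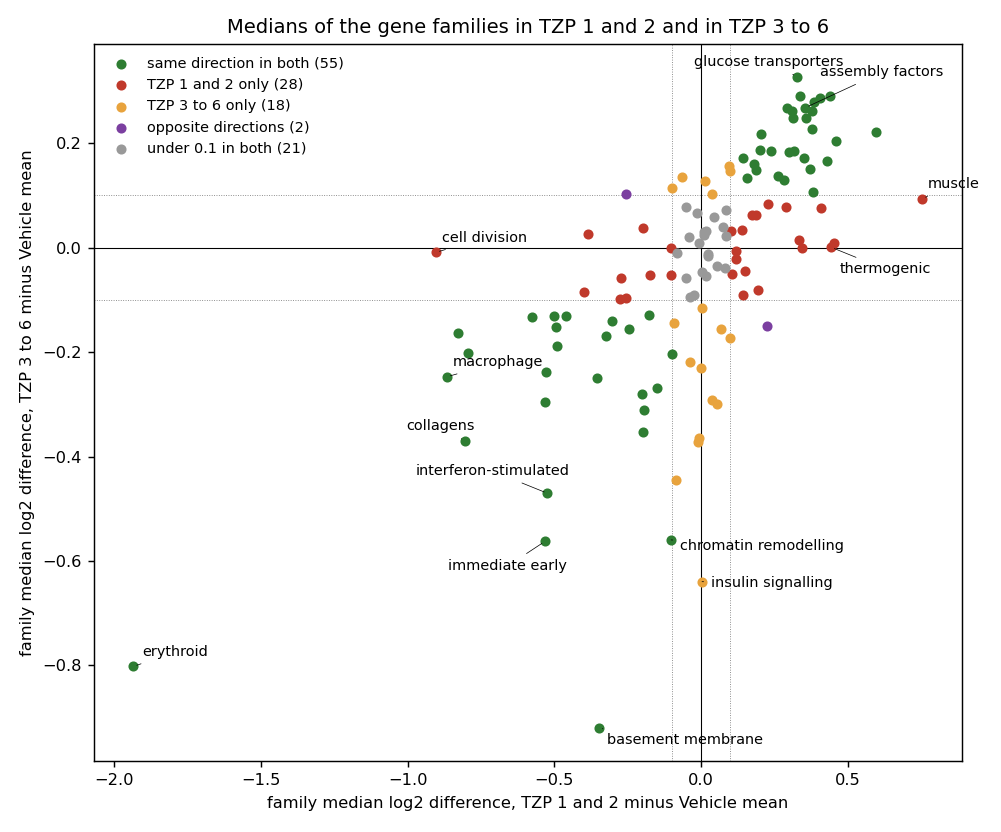
Median log2 difference of each of the 124 families over TZP 3 to 6 (vertical axis) against that over TZP 1 and 2 (horizontal axis), both from the same 6 Vehicle libraries; points are coloured by agreement at 0.1 log2 units. The mitochondrial families sit at the upper right and the immediate early, collagen and basement membrane families at the lower left, while long-transcript families such as the insulin signalling core sit straight below 0.

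Other properties of the libraries were as follows. Within groups, libraries correlated at r = 0.934 to 0.976 (TZP) and 0.919 to 0.975 (Vehicle) across genes, which are not independent replicates. The value of 1 read, read off the commonest low level and larger in a shallower library, ran from 0.948 through 1.59 to 1.88 in TZP and from 0.853 through 1.01 to 1.55 in Vehicle (difference 0.446, two-sided exact permutation test over 924 assignments, p = 0.0411, adjusted over 3 library properties 0.0617). Skeletal muscle markers averaged from 1.11 (TZP 3) through 6.83 to 8.77 in TZP and from 0.953 (Vehicle 1) through 7.36 to 9.18 in Vehicle, a difference of 0.196 with an exact permutation p of 0.926. Leaving out 1 library gave from 2739 called genes (without Vehicle 3) to 4494 (without Vehicle 5), and calls in the higher direction numbered 1306 without Vehicle 3. Counts of family members that moved by over 1.5 times without 1 library are given beside the family, for counts of at least 5 or moves of at least 3 genes. A covariate for the value of 1 read left 864 genes called higher and 1690 lower, and a covariate for the length slope left 144 and 59. Library codes run in order within each group, so an effect of any processing order cannot be told apart from treatment.

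Promoter sequence is shown for 3 genes of families whose called members all moved in the same direction, those of mitochondrial translation and the immediate early genes. Each run is the 200 bases before the start of transcription, read 5′ to 3′ on the strand of the gene from RefSeq on GRCm38.p6, with the searched motif in capitals. The motifs were the ETS core CCGGAAG and the cAMP response element TGACGTCA, searched on both strands, and neither contains the other. Mrps27, a protein of the small mitochondrial ribosomal subunit, has the ETS letters on the opposite strand 48 bases before its start (chr13:99344586-99344785, plus strand). Sars2, the mitochondrial seryl-tRNA synthetase, has them 154 bases before its start, again on the opposite strand (chr7:28741768-28741967, plus strand). Btg2, an antiproliferative immediate early gene, has the cAMP response element 166 bases before its start (chr1:134079156-134079355, minus strand).
Mrps27: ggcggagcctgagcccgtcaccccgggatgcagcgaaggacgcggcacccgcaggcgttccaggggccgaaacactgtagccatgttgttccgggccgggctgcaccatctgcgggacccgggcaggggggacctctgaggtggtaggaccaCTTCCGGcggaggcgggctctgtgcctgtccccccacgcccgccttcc
Sars2: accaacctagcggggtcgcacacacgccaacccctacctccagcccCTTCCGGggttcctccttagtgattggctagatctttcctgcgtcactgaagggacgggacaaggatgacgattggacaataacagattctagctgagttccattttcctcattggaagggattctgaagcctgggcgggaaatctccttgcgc
Btg2: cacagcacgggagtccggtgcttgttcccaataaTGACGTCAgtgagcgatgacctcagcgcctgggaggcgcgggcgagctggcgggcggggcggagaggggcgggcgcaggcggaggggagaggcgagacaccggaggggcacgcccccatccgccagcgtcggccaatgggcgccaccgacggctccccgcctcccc

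Windows from 250 bases before to 50 bases after the start were matched for 11417 of the 17263 tested genes, and 18.5% of them held the ETS letters. The share was 37.7% (26 of 69) in mitochondrial ribosomal proteins, 42.9% (15 of 35) in respiratory chain assembly factors, 12 of 30 genes in protein import and 71.4% (10 of 14) in mitochondrial DNA replication and transcription. Complex I subunits, which rose with them, held the letters in 12.1% (4 of 33), and cytosolic ribosomal proteins, whose median difference was -0.03, in 41.9% (26 of 62). Mitochondrial aminoacyl-tRNA synthetases held them in 4 of 16 windows and cytosolic ones, with a median difference of 0.06, in 46.7% (7 of 15). The cAMP response element occurred in 9.52% (2 of 21) of immediate early genes, 9.68% (6 of 62) of cytosolic ribosomal proteins, 9.09% (3 of 33) of Complex I subunits and 3.31% of all. These shares describe letters in the windows, and binding was not measured.

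The respiratory chain was higher in TZP libraries, and its families agreed between TZP 1 and 2 and TZP 3 to 6. Library medians of the subunit families overlapped between the groups. Only 3 of the 6 TZP libraries lay above the Vehicle range in each of Complexes I, II, III and IV, and 4 in ATP synthase. For Complex I they ran from 0.17 to 0.42 in TZP and from -0.23 to 0.25 in Vehicle. Complex I passes electrons from NADH to ubiquinone. Of its 37 subunits, 27 rose and 0 fell, a share of 73.0% against 11.7% of all tested genes, with a median difference of 0.31 (0.38 over TZP 1 and 2, 0.26 over TZP 3 to 6). That count was sensitive to single libraries, with 10 without Vehicle 1, 11 without Vehicle 3, 14 without TZP 4 or Vehicle 6, 16 without Vehicle 2 and 17 without TZP 2. After length correction 5 of the 37 were called higher, against 9.63% of all genes of known length. Ndufb5, a subunit of the membrane arm, ran from 9.61 through 9.85 to 10.05 in TZP libraries and from 9.07 through 9.28 to 9.67 in Vehicle libraries, which overlap at the margin. It rose by 0.53 ± 0.10 (SE, adjusted p = 0.0013; 0.59 over TZP 1 and 2, 0.50 over TZP 3 to 6). Ndufa8 and Ndufa11 rose by 0.40 ± 0.09 (adjusted p = 0.0032) and 0.41 ± 0.10 (adjusted p = 0.0079) with no overlap between the groups.

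The other complexes gave the same picture on fewer genes. Complex II, which links the citrate cycle to the chain, had a median of 0.23 (0.35 and 0.17) with 1 of 4 subunits called, Sdhd, at 11.56 ± 0.14 in TZP and 11.21 ± 0.17 in Vehicle (SD, n = 6 each; adjusted p = 0.0074). Complex III, which reduces cytochrome c, had a median of 0.35 (0.44 and 0.29). Its count of 5 of 9 fell to 3 without TZP 4 or Vehicle 6, to 2 without Vehicle 2 and to 1 without Vehicle 1 or Vehicle 3. Complex IV, which reduces oxygen, had a median of 0.31 (0.38 and 0.23) and 5 of 13 called, with 2 without Vehicle 1 or Vehicle 3, 3 without TZP 2 or Vehicle 6 and 9 without Vehicle 4 or Vehicle 5. ATP synthase subunits had a median of 0.29 (0.36 and 0.25) and 10 of 19 rose. Among their members, Uqcrh of Complex III rose by 0.35 ± 0.09 (adjusted p = 0.0086), Cox5a of Complex IV by 0.36 ± 0.10 (adjusted p = 0.0096) and Atp5k of the synthase by 0.36 ± 0.10 (adjusted p = 0.012). The transcripts of these families are shorter than the median of all tested genes, and after length correction the medians over TZP 3 to 6 were 0.09 in Complex I, 0.04 in Complex II, 0.09 in Complex III, 0.06 in Complex IV and 0.08 in ATP synthase, against 0.33 to 0.42 over TZP 1 and 2. Corrected in this way, none of these 5 families agreed at 0.1. Genes called higher then numbered 5 in Complex I, 2 in ATP synthase and 0 in Complexes II, III and IV.

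Assembly factors of the chain rose in 28 of 39 cases and fell in 0, with a median of 0.31 (0.36 and 0.27) and 0.33 and 0.19 after length correction, so they agreed before and after it. All 6 TZP libraries, with family medians from 0.17 to 0.44, lay above all 6 Vehicle libraries, from -0.15 to 0.15. Ttc19, needed for Complex III, ran from 5.60 through 5.80 to 6.02 in TZP and from 4.85 through 5.23 to 5.53 in Vehicle with no overlap, a rise of 0.59 ± 0.11 (adjusted p = 0.0014; 0.74 and 0.52). Lyrm7, another Complex III factor, rose by 0.47 ± 0.10, Cox11, which delivers copper to Complex IV, by 0.41 ± 0.08, and Ndufaf5, a Complex I factor, by 0.56 ± 0.11 (adjusted p = 0.002, 0.0016 and 0.0015). Coenzyme Q synthesis makes the electron carrier between these complexes: 9 of 13 genes rose and 0 fell, with a median of 0.31 (0.40 and 0.29; corrected 0.38 and 0.17). Pdss1, which makes the isoprenoid tail of coenzyme Q, ran from 5.06 through 5.26 to 5.50 in TZP and from 4.63 through 4.71 to 4.84 in Vehicle without overlap, 0.56 ± 0.09 higher (adjusted p = 0.0009; 0.53 and 0.57). Coq4 rose by 0.53 ± 0.11 and Coq10a by 0.48 ± 0.12 (adjusted p = 0.0019 and 0.0076).

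Machinery that builds proteins inside mitochondria was higher too, and its families agreed before and after length correction. Of 78 mitochondrial ribosomal proteins, 62 rose and 0 fell, with a median of 0.28 (0.31 and 0.26; corrected 0.30 and 0.15), and TZP library medians of 0.19 to 0.41 lay above the Vehicle ones of -0.12 to 0.15. Mrps27 ran from 6.45 through 6.66 to 6.83 in TZP and from 6.07 through 6.18 to 6.42 in Vehicle, with no overlap and a rise of 0.45 ± 0.08 (adjusted p = 0.0011; 0.54 and 0.40). Mrps11, Mrps23 and Mrpl21 rose by 0.47 ± 0.07, 0.56 ± 0.10 and 0.40 ± 0.07 (adjusted p = 0.00054, 0.00098 and 0.0012). Mitochondrial aminoacyl-tRNA synthetases load amino acids onto mitochondrial tRNAs, and 13 of 20 rose (8 without TZP 4) and 0 fell. Their median was 0.32 (0.34 and 0.29), and it was the same after length correction, their median transcript of 3418 bases being longer than that of all tested genes. Sars2 ran from 5.44 through 5.55 to 5.81 in TZP and from 4.77 through 5.03 to 5.34 in Vehicle without overlap, 0.54 ± 0.09 higher (adjusted p = 0.00099; 0.47 and 0.58). Rars2, Yars2 and the amidotransferase subunit Qrsl1 rose by 0.39 ± 0.08, 0.45 ± 0.11 and 0.42 ± 0.11 (adjusted p = 0.0018, 0.0065 and 0.0078).

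Cytosolic ribosomal proteins gave few calls in the values as deposited, and translation factors were called about as often as all tested genes. Of 85 cytosolic ribosomal proteins, whose transcripts of median length 1049 bases match the 1046 bases of Complex I subunits, 1 rose and 0 fell (3 without Vehicle 5), and the median was -0.20 over TZP 1 and 2 and 0.04 over TZP 3 to 6. After length correction the medians were -0.23 and -0.13, so the family then agreed as lower. Of the 85, 10 were then called lower and 0 higher, against 8.43% and 9.63% of all genes of known length. Many processed pseudogenes resemble these genes, which makes their values uncertain. Cytosolic aminoacyl-tRNA synthetases had 1 of 22 higher, 2 lower and a median of 0.06 (0.04 and 0.06), and translation initiation and elongation factors had 7 of 56 higher, 5 lower (3 without TZP 5) and a median of 0.01 (0.01 and 0.02), so neither set of TZP libraries reached 0.1 in these families. The shares of translation factors, 12.5% higher and 8.93% lower, were near those of all tested genes (11.7% and 10.3%). Eif2b4, a subunit of the guanine nucleotide exchange factor for eIF2, rose by 0.46 ± 0.08 (adjusted p = 0.0013; 0.44 and 0.47). Eif4g3, a scaffold of initiation, fell by 0.63 ± 0.11 (adjusted p = 0.0011), with differences of -0.26 over TZP 1 and 2 and -0.81 over TZP 3 to 6.

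Import, genome and shape of mitochondria followed the same direction. Protein import (TIM, TOM and partner proteins) had 25 of 35 higher and 0 lower, a median of 0.30 (0.29 and 0.27; corrected 0.30 and 0.15) and TZP library medians of 0.17 to 0.32, all above the Vehicle range. Timm9, an intermembrane space chaperone, ran from 6.12 through 6.39 to 6.54 in TZP and from 5.70 through 5.89 to 6.04 in Vehicle without overlap and rose by 0.46 ± 0.09 (adjusted p = 0.0014). The channel subunit Timm50 and the motor subunit Pam16 rose by 0.36 ± 0.08 and 0.48 ± 0.10 (adjusted p = 0.0029 and 0.0033). Mitochondrial DNA replication and transcription had 10 of 16 higher and 0 lower, with 6 without TZP 4 or Vehicle 2 and 5 without Vehicle 1 or Vehicle 3, and a median of 0.25 (0.31 and 0.25; corrected 0.34 and 0.21). Tefm, the elongation factor of the mitochondrial polymerase, rose by 0.44 ± 0.09, the helicase Twnk by 0.43 ± 0.11 and Tfb1m by 0.40 ± 0.11 (adjusted p = 0.0016, 0.0073 and 0.013). Outside this list, Mterf2, a mitochondrial transcription termination factor family gene, ran from 5.71 through 6.04 to 6.27 in TZP and from 4.999 through 5.32 to 5.37 in Vehicle without overlap, 0.79 ± 0.12 higher (adjusted p = 0.00043; 0.83 and 0.76).

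Fusion, fission and cristae genes had 8 of 19 higher, 0 lower and a median of 0.25 (0.32 and 0.18; corrected 0.35 and 0.13). Apoo and Apool of the cristae junction complex rose by 0.58 ± 0.11 and 0.44 ± 0.08 (adjusted p = 0.0016 and 0.0013), the fission receptor Mff by 0.46 ± 0.09 (adjusted p = 0.0015) and the prohibitin Phb2 by 0.28 ± 0.05 (adjusted p = 0.00085). The inner membrane carriers of the SLC25 family had 13 of 38 higher, 2 lower and a median of 0.18 (0.26 and 0.14; corrected 0.25 and 0.10), so that the families of this paragraph agreed. Slc25a22, a glutamate carrier, rose by 0.54 ± 0.10, the pyrimidine nucleotide carrier Slc25a33 by 0.64 ± 0.15 and Slc25a48 by 0.78 ± 0.19 (adjusted p = 0.0013, 0.0058 and 0.007).

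**Figure D3:**
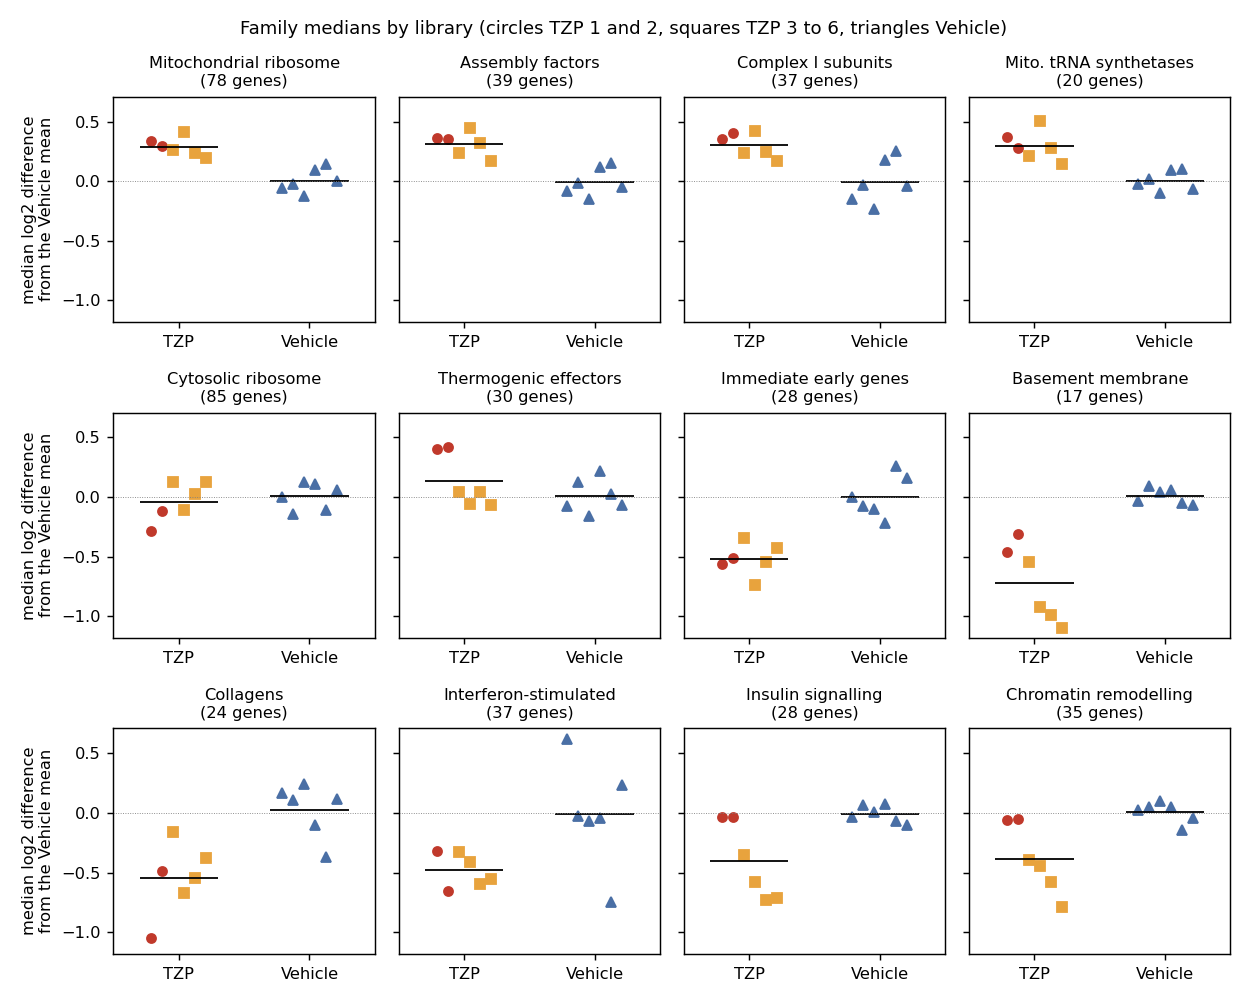
Family medians of the log2 difference from the Vehicle mean (vertical axis) in each library for 12 families, TZP libraries left of Vehicle libraries, with lines at the group means. TZP points of the mitochondrial ribosome (0.19 to 0.41) lie above its Vehicle points (-0.12 to 0.15), those of the immediate early genes (-0.74 to -0.34) lie below theirs (-0.22 to 0.26), and in the insulin signalling core only TZP 3 to 6 lie below the Vehicle points.

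Fuel oxidation families leaned higher, with larger medians over TZP 1 and 2. TZP 4 stood with TZP 1 and 2, at 0.41 in the citrate cycle family and 0.42 in branched-chain amino acid breakdown. TZP 3, TZP 5 and TZP 6 ran from -0.07 to 0.10 and from -0.05 to 0.12 there. The citrate cycle and pyruvate dehydrogenase had 6 of 28 higher and 1 lower, with 3 higher without TZP 4 or Vehicle 3 and 11 without TZP 6, and a median of 0.20 (0.38 and 0.11). After length correction it was 0.39 over TZP 1 and 2 and below 0.1 over TZP 3 to 6. The pyruvate carrier subunit Mpc2 rose by 0.41 ± 0.11, the dehydrogenase component Pdhx by 0.40 ± 0.10, and Pdk2, which inhibits the dehydrogenase, by 0.39 ± 0.11 (adjusted p = 0.011, 0.0094 and 0.013). Branched-chain amino acid breakdown had 8 of 28 higher and 0 lower (5 without TZP 4, Vehicle 1, Vehicle 2 or Vehicle 3), with a median of 0.23 (0.37 and 0.15; corrected 0.38 and 0.10). Mcee, which acts in the path from propionate to succinyl-CoA, ran from 9.21 through 9.45 to 9.59 in TZP and from 8.60 through 8.77 to 8.98 in Vehicle. The groups did not overlap, and the rise was 0.62 ± 0.09 (adjusted p = 0.00043; 0.76 and 0.55). The aminotransferase Bcat2 and the valine-pathway dehydrogenase Acad8 rose by 0.30 ± 0.07 and 0.37 ± 0.10 (adjusted p = 0.0068 and 0.0086).

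Breakdown of proline, glutamate and other amino acids had 4 of 18 higher, 1 lower and a median of 0.22 (0.24 and 0.19), and 0.22 and 0.06 after correction. Prodh, which starts proline oxidation at the inner membrane, ran from 3.52 through 3.97 to 4.11 in TZP and from 2.26 through 2.82 to 2.93 in Vehicle. It rose by 1.19 ± 0.18 with no overlap (adjusted p = 0.00054; 1.31 and 1.12). Kyat3, an aminotransferase of the kynurenine pathway and not on this list, rose by 0.65 ± 0.12 (adjusted p = 0.0012; 0.72 and 0.61).

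Fatty acid activation and mitochondrial oxidation reached 0.1 only over TZP 1 and 2, with medians of 0.41 there and 0.08 over TZP 3 to 6, and 4 of 23 genes rose while 2 fell. The 4 became 1 without TZP 1, TZP 2, TZP 4, Vehicle 2, Vehicle 3 or Vehicle 6, and 8 without TZP 6. TZP 4 did not follow the split, with a library median of 0.38 beside 0.42 in TZP 1 and 0.39 in TZP 2. The medians of TZP 3, TZP 5 and TZP 6 were 0.0037, 0.08 and -0.15. Eci1, an isomerase for unsaturated fatty acids, rose by 0.41 ± 0.11 (adjusted p = 0.012). Cpt1a, the liver form of the carnitine transferase that admits fatty acids to mitochondria, fell by 0.57 ± 0.15, and the ligase Acsl4 fell by 0.79 ± 0.20 (adjusted p = 0.0087 and 0.0078), with -0.34 and -0.15 over TZP 1 and 2 against -0.69 and -1.11 over TZP 3 to 6. Peroxisomal oxidation and biogenesis agreed, with 14 of 35 higher, 0 lower (8 higher without TZP 4 and 7 without Vehicle 3) and a median of 0.21 (0.30 and 0.18; corrected 0.31 and 0.13). Amacr, the racemase for branched fatty acids, rose by 0.50 ± 0.08, and the import factors Pex6 and Pex7 by 0.39 ± 0.09 and 0.44 ± 0.07 (adjusted p = 0.00079, 0.0048 and 0.00086).

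Glucose transporters were the fuel family here in which every TZP library lay above every Vehicle library. The 7 tested facilitative glucose transporters had a median of 0.31, with 0.33 over both TZP 1 and 2 and TZP 3 to 6. All 6 TZP libraries, from 0.07 to 0.68, lay above the Vehicle libraries, from -0.10 to -0.01, and 2 members rose. Slc2a4, the insulin-responsive transporter, ran from 6.14 through 6.48 to 7.14 in TZP and from 5.48 through 5.74 to 6.34 in Vehicle, with TZP 3 within the Vehicle range. It rose by 0.75 ± 0.17, a ratio of 1.68 on the deposited scale (adjusted p = 0.0038; 0.70 and 0.78). Slc2a8 rose by 0.31 ± 0.08 (adjusted p = 0.011). Glycolysis and lactate carriers had 2 of 22 higher, 0 lower and a median of 0.16 that agreed (0.28 and 0.13) and became 0.28 and 0.08 after correction. The regulator Pfkfb1 rose by 0.57 ± 0.13 and Ldhb by 0.51 ± 0.13 (adjusted p = 0.0047 and 0.0069). Glycogen metabolism had 2 of 21 higher, 0 lower and reached 0.1 only over TZP 1 and 2 (0.29 and 0.08), and the pentose phosphate pathway with NADPH supply had 2 of 14 higher, 0 lower and agreed (0.20 and 0.19; corrected 0.21 and 0.09).

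Lipid families were mixed. Fatty acid synthesis and desaturation reached 0.1 only over TZP 1 and 2 (0.19 and 0.06), with 4 of 30 genes higher (8 without Vehicle 5) and 5 lower, and the desaturases went against the median. Scd1, which makes monounsaturated fatty acids, ran from 13.16 through 13.46 to 14.60 in TZP and from 14.72 through 15.04 to 15.46 in Vehicle. The groups did not overlap, although TZP 1 and TZP 2, both at 14.60, lay close to Vehicle. It fell by 1.31 ± 0.23 (adjusted p = 0.001; -0.48 and -1.73). Its relatives Scd2 and Scd3 fell by 1.36 ± 0.23 and 1.04 ± 0.21 (adjusted p = 0.00094 and 0.0023), with -0.45 and -0.51 over TZP 1 and 2, and reads shared among the 3 related genes would make these values uncertain. Nr1h3, the liver X receptor alpha that controls such genes, rose by 0.22 ± 0.05 (adjusted p = 0.0046; 0.20 and 0.23).

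Cholesterol synthesis and SREBP2 targets reached 0.1 in neither (0.08 and 0.02), with 0 of 23 higher and 1 lower, the sterol carrier Stard4, which fell by 1.02 ± 0.20 (adjusted p = 0.0016; -0.72 and -1.18). Triglyceride synthesis agreed at a median of 0.26 (0.46 and 0.20; corrected 0.48 and 0.16), with 9 of 20 higher and 2 lower. Agpat1, an acyltransferase of the phosphatidic acid step, ran from 6.58 through 6.84 to 6.91 in TZP and from 6.10 through 6.35 to 6.51 in Vehicle, with no overlap and a rise of 0.47 ± 0.07 (adjusted p = 0.00058; 0.48 and 0.46). Agpat2 and Dgat1, which act in the same path, rose by 0.51 ± 0.12 and 0.37 ± 0.09 (adjusted p = 0.006 and 0.0077). Lpin2, a phosphatidate phosphatase, fell by 1.04 ± 0.27 (adjusted p = 0.0087), with -0.02 over TZP 1 and 2 and -1.56 over TZP 3 to 6.

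Lipolysis and lipid droplets reached 0.1 only over TZP 1 and 2 (0.23 and 0.08), with 1 of 16 higher and 1 lower. Cidea, a lipid droplet protein abundant in brown fat, rose by 0.45 ± 0.11 (adjusted p = 0.0079; 0.60 and 0.37). Plin4, a droplet coat protein, fell by 0.92 ± 0.27 (adjusted p = 0.017; -0.03 and -1.37). Lipoprotein lipolysis and fatty acid uptake likewise reached 0.1 only over TZP 1 and 2 (0.10 and 0.03), with 3 of 19 higher and 2 lower. Lmf1, which matures lipoprotein lipase, rose by 0.52 ± 0.08 (adjusted p = 0.00064), by the same 0.52 in both, and the receptor Lrp1 fell by 0.90 ± 0.14 (adjusted p = 0.00064; -0.64 and -1.03). Phospholipid and sphingolipid enzymes reached 0.1 in neither (0.02 and 0.03), with 7 of 35 higher (4 without Vehicle 3) and 5 lower. Within them Pcyt2, of phosphatidylethanolamine synthesis, rose by 0.48 ± 0.10 (adjusted p = 0.0027), and Ugcg, which makes glucosylceramide, ran from 4.18 through 4.40 to 4.74 in TZP and from 5.06 through 5.33 to 5.83 in Vehicle. It fell by 0.94 ± 0.13 without overlap (adjusted p = 0.00028; -1.07 and -0.87).

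Brown adipocyte markers, led by Ucp1 with values near 15 against a median of 5.33 over tested genes, matched the labelled tissue in both groups. They had 3 of 15 higher (6 without Vehicle 5), 2 lower and a median of 0.37 that agreed (0.60 and 0.22; corrected 0.57 and 0.11). Differences were positive for 13 of the 15 over TZP 1 and 2 but for 9 over TZP 3 to 6. The 2 called lower, not named here, had a positive difference over TZP 1 and 2, and 0 were called lower after length correction. Ucp1 ran from 15.09 through 15.36 to 15.91 in TZP and from 14.70 through 14.90 to 15.14 in Vehicle, so the lowest TZP libraries overlapped the highest Vehicle ones. It rose by 0.50 ± 0.12 (adjusted p = 0.0058; 0.76 and 0.37). Pank1, a kinase of coenzyme A synthesis, rose by 0.51 ± 0.12 (adjusted p = 0.0053; 0.88 and 0.32). The wider list of thermogenic effectors and brown fat regulators reached 0.1 only over TZP 1 and 2 (0.44 and 0.00), with 3 of 30 higher (6 without TZP 3 or Vehicle 4) and 4 lower (7 without TZP 1). Esrra, a nuclear receptor that controls mitochondrial genes, rose by 0.39 ± 0.09 (adjusted p = 0.0042; 0.45 and 0.36). The thyroid hormone receptor Thrb had 4.23 and 4.14 in TZP 1 and TZP 2, 2.20 to 2.66 in TZP 3 to 6, and 4.08 to 4.59 in Vehicle. It fell by 1.28 ± 0.28 (adjusted p = 0.0035), and only TZP 3 to 6 lay apart from Vehicle. Zfp516, a transcriptional activator of brown fat genes, fell by 0.94 ± 0.18 (adjusted p = 0.0016; -0.35 and -1.24). White adipocyte markers reached 0.1 in neither (0.02 and -0.01), with 0 of 5 higher and 1 lower.

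Receptors and their pathways differed between the sets of TZP libraries. Gipr, a receptor that tirzepatide activates, ran from 2.99 through 3.04 to 3.36 in TZP and from 2.81 through 2.89 to 3.50 in Vehicle, overlapping throughout, with a difference of 0.12 ± 0.19 (adjusted p = 0.69). Its mean over the 24 libraries, 2.89, is just above the lower limit of 2.86 for tested genes, where the inferred offset near 1 understates changes. Glp1r, the gene of the GLP-1 receptor, has no deposited value under that symbol. Incretin and related class B receptors reached 0.1 only over TZP 3 to 6 (0.09 and 0.16), with 2 of 7 higher and 1 lower. Pth1r, the parathyroid hormone receptor, rose by 0.46 ± 0.11 (adjusted p = 0.0056), and Calcrl, a vascular peptide receptor, fell by 0.82 ± 0.22 (adjusted p = 0.012; -0.40 and -1.03). Adrenoceptors and natriuretic peptide receptors reached 0.1 only over TZP 1 and 2 (0.14 and 0.03), with 0 of 11 called by limma in either direction and 1 at an unadjusted p below 0.05. Genes of cAMP synthesis, breakdown and protein kinase A were lower only over TZP 3 to 6 (0.0991 and -0.17; corrected 0.15 and -0.07). Of 46, 4 rose (1 without TZP 4, TZP 5, Vehicle 1 or Vehicle 3) and 16 fell, with 9 lower without TZP 4, TZP 5 or TZP 6 and 10 without Vehicle 2 or Vehicle 3. The cyclase Adcy9 fell by 1.14 ± 0.25 (adjusted p = 0.0034; -0.25 and -1.58), while the phosphodiesterase Pde4b fell by 0.55 ± 0.14 (adjusted p = 0.0099) alike in both (-0.57 and -0.54). Creatine and calcium cycling reached 0.1 only over TZP 1 and 2 (0.15 and -0.05), with 0 of 17 higher and 1 lower.

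The insulin signalling core is a family in which TZP 1 and 2 stood apart from TZP 3 to 6. Its 28 tested genes have a median transcript of 6474 bases. Of them 16 fell (10 without TZP 5) and 1 rose, a share of 57.1% lower against 10.3% of all tested genes. In the longest of the 10 bins by transcript length, which starts at 6188 bases, 42.3% of genes were called lower. The median was -0.42 over all TZP libraries, 0.00 over TZP 1 and 2 and -0.64 over TZP 3 to 6, and 0.10 and -0.14 after length correction. With that correction 5 genes were called lower and 3 higher, against 8.43% lower and 9.63% higher of all genes of known length. Foxo3, a transcription factor held back by insulin, had 5.81 and 6.29 in TZP 1 and TZP 2, 4.35 to 5.37 in TZP 3 to 6, and 6.13 to 6.89 in Vehicle. It fell by 1.29 ± 0.24 (adjusted p = 0.0014), with TZP 2 inside the Vehicle range. The adaptor Grb10 fell by 0.97 ± 0.21 and the Rab regulator Tbc1d1 by 0.66 ± 0.14 (adjusted p = 0.0032 and 0.0031). Gsk3a, a kinase that insulin inhibits, went the other way: 7.50 through 7.56 to 7.71 in TZP and 7.15 through 7.28 to 7.35 in Vehicle, 0.31 ± 0.05 higher without overlap (adjusted p = 0.00063; 0.37 and 0.29).

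**Figure D4:**
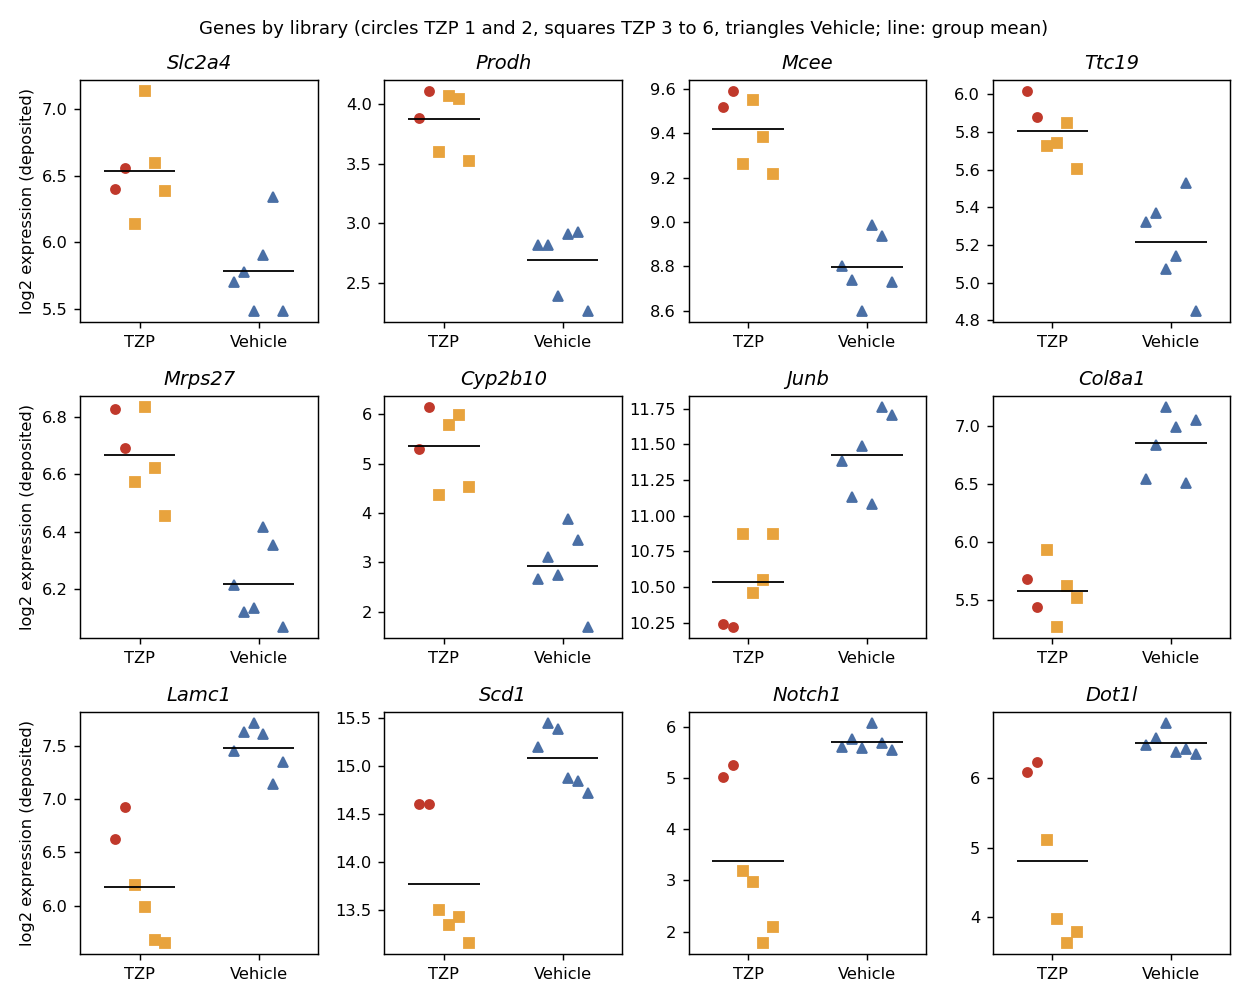
Log2 values of named genes in each library, TZP libraries left of Vehicle libraries, with TZP 1 and 2 marked apart from TZP 3 to 6 and lines at the group means. Mcee, Prodh and Col8a1 separate all 6 TZP from all 6 Vehicle libraries, while in Notch1 and Dot1l TZP 1 and 2 lie just below Vehicle and TZP 3 to 6 far below.

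Secreted factors and timing genes changed little as families. Adipokines and brown fat secreted factors reached 0.1 only over TZP 1 and 2 (0.12 and -0.02), with 3 of 28 higher and 1 lower. Nrtn, a neurotrophic factor, ran from 5.51 through 5.77 to 6.15 in TZP and from 4.43 through 4.98 to 5.29 in Vehicle without overlap, 0.87 ± 0.19 higher (adjusted p = 0.0029; 0.59 and 1.01), and the endothelial growth factor Vegfb rose by 0.45 ± 0.12 (adjusted p = 0.013). Circadian clock genes reached 0.1 only over TZP 1 and 2 (0.14 and -0.09), with 2 of 20 higher, among them the clock repressor Ciart by 0.90 ± 0.25 (adjusted p = 0.013; 1.33 and 0.69), and 1 lower. Glucocorticoid-responsive genes also reached 0.1 only over TZP 1 and 2 (0.45 and 0.01), with 2 of 15 higher and 2 lower. The glucocorticoid receptor Nr3c1 fell by 1.03 ± 0.21 (adjusted p = 0.0019; -0.28 and -1.41), and Lcn2, a siderophore-binding protein, by 1.23 ± 0.28 (adjusted p = 0.0043; -1.70 and -0.99).

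Immediate early genes, which respond within minutes to many stimuli, were lower, and their medians changed little under length correction. Of 28, 14 fell and 0 rose, with a median of -0.54 (-0.53 and -0.56; corrected -0.53 and -0.61), and all 6 TZP libraries, from -0.74 to -0.34, lay below the Vehicle libraries, from -0.22 to 0.26. Junb, an AP-1 subunit, ran from 10.22 through 10.50 to 10.88 in TZP and from 11.08 through 11.44 to 11.76 in Vehicle, with no overlap and a fall of 0.89 ± 0.17 (adjusted p = 0.0017; -1.20 and -0.74). Egr1, a zinc finger factor, ran from 7.15 through 7.34 to 8.14 in TZP and from 8.63 through 9.41 to 10.29 in Vehicle, again apart, and fell by 1.88 ± 0.32 (adjusted p = 0.00091; -1.97 and -1.84). The factor Klf6, the matricellular gene Cyr61 and Btg2 fell by 0.74 ± 0.13, 1.04 ± 0.20 and 0.51 ± 0.13 (adjusted p = 0.00091, 0.0015 and 0.0078). Their groups did not overlap for 7 of the 28.

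Stress families had smaller medians. ER chaperones and the unfolded protein response agreed at -0.30 (-0.20 and -0.31; corrected -0.21 and -0.32), with 15 of 32 lower and 0 higher, and 8 lower without TZP 4, Vehicle 1 or Vehicle 3 and 9 without TZP 5 or Vehicle 6. Ern1, the sensor kinase IRE1, ran from 0.95 through 1.65 to 3.64 in TZP and from 3.76 through 3.99 to 4.49 in Vehicle, with the highest TZP values in TZP 1 and TZP 2. It fell by 1.97 ± 0.35 (adjusted p = 0.0011; -0.53 and -2.69), Edem3 by 1.72 ± 0.31 (adjusted p = 0.0011) and the sensor Atf6 by 0.72 ± 0.15 (adjusted p = 0.0021). In TZP 3 to 6 Ern1 stood at 0.95 to 1.75 and Edem3 at 1.51 to 1.84. Values so low stand for few reads, so the sizes of these 2 falls are uncertain. ATF4 targets and serine synthesis had opposite medians (0.23 and -0.15), with 1 of 21 higher and 3 lower. Heat shock proteins and the CCT chaperonin reached 0.1 only over TZP 1 and 2 (0.12 and -0.01), with 4 of 54 higher, among them the mitochondrial co-chaperone Dnaja3 by 0.36 ± 0.10 (adjusted p = 0.012), and 3 lower.

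Glutathione and antioxidant enzymes agreed at 0.17 (0.18 and 0.16; corrected 0.15 and 0.04), with 9 of 49 higher, 1 lower, 5 higher without TZP 4, Vehicle 1 or Vehicle 2 and 4 without Vehicle 3. The mitochondrial thioredoxin Txn2 rose by 0.42 ± 0.09 and the transferase Gstm7, a gene with close relatives, by 0.94 ± 0.21 (adjusted p = 0.0038 and 0.0033). Heme and iron handling reached 0.1 in neither (0.08 and 0.07), with 8 of 33 higher (5 without Vehicle 3) and 4 lower (1 without TZP 4, TZP 5, Vehicle 1 or Vehicle 3), yet the heme synthesis enzymes Alad and Uros rose by 0.45 ± 0.11 and 0.40 ± 0.10 (adjusted p = 0.0067 and 0.0058). Metallothioneins and zinc transporters reached 0.1 in neither (-0.0372 and -0.0953), with 0 of 21 higher and 4 lower.

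Inflammatory families had negative medians, and 5 of the 6 agreed, while the share of called genes was in some close to that of all tested genes (11.7% higher and 10.3% lower). Interleukins, TNF family members and their receptors had 15 of 55 lower, 1 higher and a median of -0.30 (-0.53 and -0.24; corrected -0.54 and -0.20). Csf1, the growth factor of macrophages, ran from 5.51 through 5.81 to 6.22 in TZP and from 6.59 through 6.67 to 6.96 in Vehicle, with no overlap and a fall of 0.93 ± 0.14 (adjusted p = 0.00043; -1.07 and -0.85). The receptor chains Il4ra and Csf2rb fell by 0.72 ± 0.11 and 1.01 ± 0.16 (adjusted p = 0.00064 each). Il6st, the signal chain shared by receptors of the interleukin-6 family, ran from 4.52 through 5.66 to 6.88 in TZP and from 7.10 through 7.26 to 7.43 in Vehicle and fell by 1.47 ± 0.26 (adjusted p = 0.001; -0.47 and -1.97). Chemokines and their receptors agreed at -0.38 (-0.53 and -0.30; corrected -0.54 and -0.35), with 6 of 45 lower (13.3%; 3 genes without Vehicle 1 or Vehicle 6) and 5 higher (11.1%; 3 genes without TZP 2 or TZP 4). Cxcl1, a neutrophil attractant, fell by 1.62 ± 0.34 (adjusted p = 0.0029; -2.10 and -1.38), Cxcl12 fell by 0.62 ± 0.16 (adjusted p = 0.0086) and the scavenging receptor Ackr4 rose by 0.83 ± 0.21 (adjusted p = 0.0078).

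Toll-like receptor and NF-kappaB genes agreed at -0.35 (-0.36 and -0.25; corrected -0.34 and -0.24), with 11 of 38 lower, 1 higher and 7 lower without TZP 4, TZP 5, Vehicle 1, Vehicle 3 or Vehicle 6. The feedback inhibitor Tnfaip3 fell by 1.15 ± 0.22 (adjusted p = 0.0016; -1.04 and -1.21) and the adaptor Traf4 rose by 0.60 ± 0.11 (adjusted p = 0.0014). Complement and coagulation agreed at -0.32 (-0.49 and -0.19; corrected -0.46 and -0.25), with 9 of 34 lower (14 without Vehicle 5) and 1 higher. The endothelial clotting protein Vwf fell by 0.72 ± 0.12 (adjusted p = 0.00091). Interferon-stimulated genes agreed at -0.50 (-0.52 and -0.47; corrected -0.52 and -0.49), with 8 of 37 lower, 5 without Vehicle 1 and 23 without Vehicle 5, and 1 higher. The Vehicle libraries themselves ran from -0.75 to 0.62 and all 6 TZP libraries, from -0.66 to -0.32, lay inside that range. Parp14 and Ifit2 fell by 0.85 ± 0.18 and 0.90 ± 0.21 (adjusted p = 0.0028 and 0.005), and Gbp7, which has near-identical relatives, by 1.18 ± 0.32 (adjusted p = 0.011; -0.33 and -1.61). MHC and antigen presentation reached 0.1 only over TZP 1 and 2 (-0.40 and -0.08; corrected -0.42 and -0.19), with 4 of 34 lower (11.8%) and 1 higher. The MHC class I light chain B2m fell by 0.48 ± 0.13 and its activator Nlrc5 by 0.84 ± 0.19 (adjusted p = 0.01 and 0.0038). Among genes outside these lists, Ptx3, a soluble pattern receptor, fell by 1.64 ± 0.31 and the sterol hydroxylase Ch25h by 1.30 ± 0.22 (adjusted p = 0.0014 and 0.00091), both with no overlap and lower values over TZP 1 and 2 (-2.25 and -1.88) than over TZP 3 to 6 (-1.33 and -1.01).

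Among markers of blood and immune cells, the erythroid list held most of the calls. In bulk RNA fewer cells of a type and less RNA per cell cannot be told apart. Macrophage markers agreed at -0.47 (-0.87 and -0.25; corrected -0.90 and -0.29), with 1 of 19 lower (8 without Vehicle 5), the mannose receptor Mrc1, at 6.23 ± 0.24 in TZP and 7.31 ± 0.46 in Vehicle (SD, n = 6 each; adjusted p = 0.004). Their TZP library medians, from -1.04 to 0.05, overlapped the Vehicle ones, from -0.72 to 0.37. Neutrophil markers agreed at -0.33 (-0.80 and -0.20), with 1 of 8 lower, Lcn2. Erythroid markers agreed at -1.17 (-1.93 and -0.80; corrected -1.95 and -1.002), with 8 of 9 lower. The 8 became 3 without TZP 1, TZP 2, TZP 4, TZP 5, Vehicle 1 or Vehicle 4, and 5 without Vehicle 6. Slc4a1, the red cell anion exchanger, ran from 0.01 through 2.21 to 4.87 in TZP and from 4.42 through 5.10 to 6.49 in Vehicle and fell by 2.75 ± 0.66 (adjusted p = 0.006). Lymphocyte markers reached 0.1 only over TZP 1 and 2 (-0.39 and 0.03), with 0 of 4 called by limma and 0 at an unadjusted p below 0.05.

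Among vascular and stromal markers, most lower calls were endothelial or pericyte genes. Endothelial markers agreed at -0.15 (-0.10 and -0.20), with 9 of 19 lower and 1 higher, and -0.07 and -0.25 after correction. Cldn5, the tight junction protein of endothelium, ran from 10.63 through 11.07 to 11.40 in TZP and from 11.66 through 12.06 to 12.33 in Vehicle, with no overlap and a fall of 1.02 ± 0.13 (adjusted p = 0.0002; -1.10 and -0.98). Cd93 ran from 7.60 through 8.59 to 9.76 in TZP and from 10.25 through 10.76 to 11.09 in Vehicle and fell by 2.08 ± 0.30 (adjusted p = 0.00043; -1.06 and -2.58), and the endothelial cadherin Cdh5 fell by 0.42 ± 0.08 (adjusted p = 0.0013). Pericyte and smooth muscle markers reached 0.1 only over TZP 3 to 6 (-0.04 and -0.22; corrected -0.01 and 0.04), with 6 of 14 lower, among them Pdgfrb by 0.72 ± 0.11 and Rgs5 by 0.78 ± 0.16 (adjusted p = 0.00058 and 0.0019), and 1 higher. Fibroblast and preadipocyte markers agreed at -0.28 (-0.49 and -0.15; corrected -0.49 and -0.07), with 2 of 12 lower, among them the progenitor receptor Pdgfra by 1.01 ± 0.21 (adjusted p = 0.0026), and 0 higher. Schwann cell and nerve markers reached 0.1 only over TZP 1 and 2 (0.35 and -0.0013), with 0 of 11 called by limma and 1 at an unadjusted p below 0.05. Skeletal muscle markers likewise reached 0.1 only over TZP 1 and 2 (0.75 and 0.09), with 0 of 21 called by limma, 0 at an unadjusted p below 0.05, and library medians from -5.09 to 2.86 in TZP and from -5.36 to 3.19 in Vehicle, a spread far larger than the difference. The 10 mesothelial and epithelial markers all lay below the expression limit of the tests.

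Matrix families were lower, and length correction changed several of their medians. Collagens agreed at -0.52 (-0.81 and -0.37), with 12 of 24 lower and 1 higher, but after correction the medians were -0.76 and 0.02, their transcripts having a median length of 5762 bases. Col8a1, a short-chain collagen of vessels, ran from 5.26 through 5.56 to 5.93 in TZP and from 6.51 through 6.92 to 7.17 in Vehicle. It fell by 1.28 ± 0.16 without overlap, to 0.412 of the Vehicle level on the deposited scale (adjusted p = 0.0002; -1.29 and -1.27). Col12a1 fell by 1.17 ± 0.18 (adjusted p = 0.00054; -1.16 and -1.18) and the basement membrane chain Col4a1 by 0.65 ± 0.12 (adjusted p = 0.0016; -0.33 and -0.81). Laminins, nidogens and basement membrane genes, the sheet under endothelium and around adipocytes, agreed at -0.68 (-0.35 and -0.92; corrected -0.32 and -0.45), with 12 of 17 lower and 0 higher. All 6 TZP libraries, from -1.10 to -0.31, lay below the Vehicle libraries, from -0.07 to 0.09. Lamc1, the common laminin gamma chain, ran from 5.65 through 6.09 to 6.93 in TZP and from 7.14 through 7.53 to 7.72 in Vehicle and fell by 1.30 ± 0.18 (adjusted p = 0.00035; -0.70 and -1.60). Nid1, which links laminin to collagen, ran from 5.73 through 6.52 to 7.59 in TZP and from 7.97 through 8.18 to 8.42 in Vehicle and fell by 1.56 ± 0.24 (adjusted p = 0.00054; -0.71 and -1.99). Sparc and Lama4 fell by 0.40 ± 0.06 and 0.78 ± 0.11 (adjusted p = 0.0006 and 0.00028), and none of these 4 genes overlapped between the groups.

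Matricellular and crosslinking genes agreed at -0.25 (-0.50 and -0.13; corrected -0.50 and -0.05), with 11 of 53 lower (17 without Vehicle 5) and 0 higher. Thbs1, a thrombospondin, ran from 3.52 through 5.06 to 5.97 in TZP and from 6.75 through 7.27 to 7.80 in Vehicle and fell by 2.40 ± 0.32 without overlap (adjusted p = 0.00028; -1.66 and -2.77). The microfibril protein Fbn1 fell by 1.16 ± 0.22 (adjusted p = 0.0016; -1.13 and -1.18) and the crosslinking oxidase Lox by 0.77 ± 0.13 (adjusted p = 0.00085). Matrix metalloproteases, ADAMs and inhibitors agreed at -0.19 (-0.24 and -0.16; corrected -0.22 and -0.04), with 11 of 46 lower and 1 higher. The aggrecan protease Adamts4 fell by 1.45 ± 0.24 and the sheddase Adam10 by 0.89 ± 0.17 (adjusted p = 0.00079 and 0.0015). Serpins, protease inhibitors, agreed at -0.32 (-0.83 and -0.16; corrected -0.82 and -0.24), with 4 of 14 lower, among them Serpinb9 by 0.67 ± 0.14 (adjusted p = 0.0024), and 0 higher.

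Adhesion families were weaker. Integrins agreed at -0.19 (-0.30 and -0.14; corrected -0.29 and -0.02), with 3 of 16 lower and 1 higher: Itga6, a laminin receptor chain, fell by 1.31 ± 0.24 and Itgb1 by 0.53 ± 0.09, while Itgae rose by 0.87 ± 0.22 (adjusted p = 0.0012, 0.00083 and 0.0073). Cadherins and protocadherins reached 0.1 only over TZP 1 and 2 (0.10 and -0.05), with 1 of 75 higher and 7 lower, and 0.15 and 0.21 after correction; protocadherins of a cluster share exons, so their values are uncertain. Claudins and tight junction genes reached 0.1 in neither (0.00 and -0.05), with 1 of 14 higher and 4 lower, among them the scaffold Tjp1 by 1.40 ± 0.25 (adjusted p = 0.001; -0.45 and -1.87). Semaphorins, plexins, ephrins and Eph receptors were lower only over TZP 3 to 6 (-0.0003 and -0.23; corrected 0.03 and -0.02), with 12 of 41 lower and 0 higher. Plxna1 fell by 2.08 ± 0.39 and Sema6d fell by 2.12 ± 0.39 (adjusted p = 0.0014 each), with -0.50 and -0.65 over TZP 1 and 2 and -2.86 each over TZP 3 to 6.

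Among signalling families, STAT, SOCS and JAK genes agreed at -0.30 (-0.20 and -0.28), with 6 of 22 lower and 0 higher, TZP library medians of -0.38 to -0.08, all below the Vehicle range, and -0.15 and -0.07 after correction. Stat3 fell by 0.68 ± 0.09 and the kinase Jak1 by 0.76 ± 0.11 (adjusted p = 0.00028 and 0.00054), with -0.51 and -0.37 over TZP 1 and 2. TGF-beta, BMP and activin signalling reached 0.1 only over TZP 1 and 2 (-0.18 and -0.05), although its library medians, from -0.21 to -0.01, were below every Vehicle library, from 0.00 to 0.07. Of 41, 10 fell and 0 rose, among them Smad1 by 0.54 ± 0.10 alike in both (-0.52 and -0.56) and the receptor Tgfbr1 by 1.60 ± 0.31 (-0.57 and -2.12; adjusted p = 0.0016 each). The IGF system reached 0.1 only over TZP 1 and 2 (-0.27 and -0.06), with 1 of 11 higher and 3 lower, among them the clearance receptor Igf2r by 1.26 ± 0.20 (adjusted p = 0.00066). Wnt signalling (-0.04 and 0.02; 2 of 36 higher, 5 lower) and growth factor signalling through FGF, VEGF, PDGF and angiopoietins (0.02 and -0.02; 1 of 31 higher, 6 lower) reached 0.1 in neither. The Wnt receptor Fzd5 fell by 1.25 ± 0.29 (adjusted p = 0.005).

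Notch signalling was lower only over TZP 3 to 6 (-0.09 and -0.14; corrected -0.09 and -0.18), with 2 of 25 higher and 8 lower. Notch1 had 5.03 and 5.25 in TZP 1 and TZP 2, 1.78 to 3.19 in TZP 3 to 6, and 5.54 to 6.08 in Vehicle. It fell by 2.32 ± 0.42 (adjusted p = 0.0011), with -0.57 over TZP 1 and 2 and -3.20 over TZP 3 to 6. Its SD was 1.46 in TZP and 0.20 in Vehicle (n = 6 each), so the shared spread behind this SE understates that of TZP. The nuclear partner of Notch1, Rbpj, fell by 1.02 ± 0.21 (adjusted p = 0.0021) with -1.14 and -0.96. MAP kinases and dual specificity phosphatases reached 0.1 in neither (0.05 and -0.04), with 6 of 69 higher and 11 lower (7 without TZP 5, TZP 6 or Vehicle 4), among them Map3k1 by 1.78 ± 0.28 (adjusted p = 0.00058; -0.80 and -2.28). Nuclear receptors and coregulators were lower only over TZP 3 to 6 (0.07 and -0.16; corrected 0.12 and -0.06), with 3 of 37 higher and 9 lower (5 without TZP 5). The coactivator Ncoa3 fell by 1.12 ± 0.20 and the retinoid partner receptor Rxrb rose by 0.43 ± 0.09 (adjusted p = 0.001 and 0.0021).

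Kruppel-like and Sp factors reached 0.1 in neither (-0.05 and -0.06), with 1 of 15 higher and 5 lower (3 without TZP 4, TZP 5, TZP 6, Vehicle 1, Vehicle 2 or Vehicle 4). The riser was Klf15, a glucocorticoid-induced regulator of amino acid use, from 4.50 through 5.08 to 5.29 in TZP and from 3.43 through 3.88 to 4.68 in Vehicle, 0.96 ± 0.20 higher (adjusted p = 0.0022; 1.10 and 0.90). Forkhead, Sox and Hox factors reached 0.1 only over TZP 3 to 6 (0.04 and 0.10), with 3 of 55 higher (0 without Vehicle 3 or Vehicle 6) and 6 lower, and regulators of G protein signalling likewise (-0.06 and 0.14), with 1 of 14 higher and 1 lower, Rgs5.

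Transporters and channels followed no common direction. Potassium channels agreed at 0.20 (0.43 and 0.17; corrected 0.49 and 0.17), with 3 of 31 higher, among them Kcng2 by 1.28 ± 0.25 (adjusted p = 0.0018; 1.02 and 1.41), and 1 lower. TRP, calcium and sodium channels agreed at 0.13 (0.19 and 0.15; corrected 0.23 and 0.22), with 4 of 36 higher and 3 lower, and the 4 tested aquaporins agreed at 0.31 (0.38 and 0.28; corrected 0.42 and 0.47), with 1 higher and 0 lower. ABC transporters were lower only over TZP 3 to 6 (0.05 and -0.30; corrected 0.06 and -0.01), with 4 of 32 higher and 9 lower, among them the cholesterol exporter Abca1, which fell by 1.13 ± 0.19 (adjusted p = 0.00094; -0.53 and -1.43). Amino acid transporters reached 0.1 in neither (-0.02 and -0.09), with 2 of 24 higher and 5 lower (2 without TZP 4 or TZP 5 and 3 without TZP 6, Vehicle 1, Vehicle 3 or Vehicle 6). Slc6a17 rose by 0.78 ± 0.16 (adjusted p = 0.0026; 0.88 and 0.73) and the taurine transporter Slc6a6 fell by 1.62 ± 0.32 (adjusted p = 0.0018; -0.35 and -2.25). Subunits of the V-ATPase, which acidifies lysosomes, reached 0.1 in neither (-0.08 and -0.01), with 2 of 20 higher and 1 lower.

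Families of protein handling differed from each other. Proteasome subunits reached 0.1 in neither (-0.01 and 0.07), with 4 of 48 higher, among them the assembly chaperone Psmg1 by 0.33 ± 0.07, and 2 lower, among them their activator Nfe2l1 by 0.44 ± 0.10 (adjusted p = 0.0032 and 0.0035). Ubiquitin-specific proteases were lower only over TZP 3 to 6 (0.04 and -0.29; corrected 0.09 and -0.07), with 3 of 42 higher and 15 lower (8 without TZP 5 or TZP 6 and 9 without Vehicle 1 or Vehicle 3), among them Usp45 by 1.11 ± 0.24 (adjusted p = 0.003). Ubiquitin-conjugating enzymes were higher only over TZP 3 to 6 (0.01 and 0.13), with 6 of 32 higher, 1 lower and 1 to 3 higher without TZP 4 (1), TZP 5 or Vehicle 3 (2) and TZP 2 or Vehicle 2 (3). Tripartite motif genes reached 0.1 only over TZP 1 and 2 (-0.10 and -0.05), with 2 of 44 higher and 3 lower (6 without Vehicle 5), among them the ligase Trim25 by 0.92 ± 0.25 (adjusted p = 0.013). Autophagy genes reached 0.1 only over TZP 1 and 2 (0.17 and 0.06), with 4 of 39 higher (8 without Vehicle 5), among them the protease Atg4d by 0.61 ± 0.10 (adjusted p = 0.0009; 0.76 and 0.53), and 2 lower.

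Lysosomal hydrolases and cathepsins reached 0.1 only over TZP 1 and 2 (-0.25 and -0.0956), with 2 of 36 higher and 5 lower, a count of 1 without TZP 4, TZP 5 or Vehicle 3, 2 without Vehicle 1 or Vehicle 2, 3 without TZP 1, TZP 6 or Vehicle 6 and 8 without Vehicle 5. Coat genes of COPI, COPII and the Golgi were lower only over TZP 3 to 6 (0.00 and -0.12; corrected 0.02 and -0.03), with 1 of 30 higher and 6 lower, among them Copa by 0.40 ± 0.08 (adjusted p = 0.0018). SEC61, signal peptidase and oligosaccharyltransferase genes reached 0.1 only over TZP 1 and 2 (-0.10 and -0.0013), with 0 of 33 higher and 4 lower (1 without TZP 5, Vehicle 1 or Vehicle 3), and Rab GTPases in neither (0.01 and 0.03), with 3 of 45 higher and 3 lower.

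Several nuclear families with long transcripts were lower only over TZP 3 to 6. Lysine methyltransferases and demethylases, of median length 6130 bases, had 16 of 47 lower and 1 higher, with medians of -0.01 and -0.37, and 0.04 and -0.05 after correction. Dot1l, a histone methyltransferase, had 6.09 and 6.23 in TZP 1 and TZP 2, 3.62 to 5.10 in TZP 3 to 6, and 6.35 to 6.81 in Vehicle. All 6 TZP libraries were lower, and the fall of 1.71 ± 0.33 (adjusted p = 0.0015) was made of -0.34 and -2.39. Kmt2d, an enhancer methyltransferase, ran from 4.68 through 5.14 to 6.42 in TZP and from 6.63 through 6.72 to 6.81 in Vehicle and fell by 1.33 ± 0.22 (adjusted p = 0.00085; -0.37 and -1.80). Chromatin remodelling ATPases and helicases agreed by a margin (-0.10 and -0.56), with 18 of 35 lower and 1 higher, and reached only -0.02 and -0.10 after correction. Arid1a fell by 1.78 ± 0.34, Chd4 by 0.69 ± 0.13 and Smarca2 by 0.55 ± 0.10 (adjusted p = 0.0016, 0.0014 and 0.0012), with -0.30, -0.21 and -0.20 over TZP 1 and 2. Smarcd1, a subunit of the same complexes with a shorter transcript, ran from 5.46 through 5.60 to 5.75 in TZP and from 5.04 through 5.23 to 5.31 in Vehicle and rose by 0.39 ± 0.07 without overlap (adjusted p = 0.00099; 0.41 and 0.38).

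Nucleoporins and importins were lower only over TZP 3 to 6 (-0.01 and -0.37; corrected 0.01 and -0.00197), with 22 of 44 lower and 1 higher, and 14 lower without TZP 4 and 13 without TZP 5 or TZP 6. Nup153 fell by 1.24 ± 0.29 (adjusted p = 0.0054; -0.09 and -1.82), Nup210 fell by 1.13 ± 0.20 and the importin Kpnb1 by 0.45 ± 0.09 (adjusted p = 0.001 and 0.0021). RNA polymerase II and Mediator subunits were higher only over TZP 3 to 6 (0.0999 and 0.15; corrected 0.12 and 0.07), with 17 of 77 higher and 6 lower and all 6 TZP library medians, from 0.09 to 0.22, above the Vehicle range. The TZP medians over all tested genes, from 0.03 to 0.08, also lay above their Vehicle range. The short subunit gene Polr2k ran from 5.04 through 5.19 to 5.27 in TZP and from 4.33 through 4.59 to 4.92 in Vehicle and rose by 0.58 ± 0.10 (adjusted p = 0.00094; 0.61 and 0.56). The largest subunit gene Polr2a fell by 1.12 ± 0.20 (adjusted p = 0.001; -0.36 and -1.50) and Med13l fell by 1.55 ± 0.29 (adjusted p = 0.0014; -0.63 and -2.01).

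Spliceosome proteins reached 0.1 in neither (-0.05 and 0.08), with 3 of 60 higher and 3 lower (8 without Vehicle 5), among them Prpf8 by 1.17 ± 0.22 and Sf3b1 by 0.48 ± 0.11 (adjusted p = 0.0014 and 0.0038). DEAD and DEAH box helicases reached 0.1 in neither (-0.01 and 0.01), with 1 of 48 higher and 11 lower, among them Ddx6, which fell by 1.79 ± 0.36 (adjusted p = 0.0019; -0.45 and -2.46). Zinc finger genes named Zfp reached 0.1 in neither (0.08 and -0.04), with 15 of 347 higher (9 without TZP 5) and 24 lower. Zfp518b ran from 1.82 through 2.28 to 3.54 in TZP and from 4.27 through 4.40 to 5.08 in Vehicle and fell by 2.15 ± 0.27 (adjusted p = 0.0002; -1.57 and -2.44). Histones, whose genes are near-identical copies and whose replication-dependent mRNAs lack a polyA tail, reached 0.1 only over TZP 3 to 6 (-0.0988 and 0.11), with 4 of 72 higher (1 without TZP 4 or Vehicle 2) and 1 lower. Cell division genes reached 0.1 only over TZP 1 and 2 (-0.90 and -0.01), with 1 of 34 higher and 0 lower (5 without Vehicle 5), and Vehicle library medians that ran from -1.02 to 0.74. TZP 4 had a median of -0.72, near TZP 1 (-1.02) and TZP 2 (-0.83). TZP 3, TZP 5 and TZP 6 ran from 0.08 to 0.31.

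Most cytoskeletal families had negative medians. The Arhgap, Arhgef and Dock genes, activators and exchange factors of small GTPases, agreed at -0.28 (-0.20 and -0.35; corrected -0.15 and -0.02), with 20 of 54 lower and 2 higher, and all 6 TZP libraries, from -0.52 to -0.17, below the Vehicle range. Arhgap31 fell by 1.899 ± 0.34 and Arhgef7 by 0.48 ± 0.08 (adjusted p = 0.0012 and 0.00089). Nonmuscle myosins were lower only over TZP 3 to 6 (-0.08 and -0.44; corrected -0.06 and -0.14), with 9 of 24 lower and 0 higher, among them Myh9 by 1.02 ± 0.16 and Myo9b by 0.72 ± 0.15 (adjusted p = 0.00058 and 0.0027). Kinesins agreed at -0.30 (-0.18 and -0.13; corrected -0.10 and 0.01), with 5 of 22 lower, among them Kif5b by 0.51 ± 0.12 (adjusted p = 0.0066), and 0 higher. Actin nucleators and ARP2/3 agreed at -0.27 (-0.46 and -0.13; corrected -0.46 and -0.24), with 5 of 26 lower (3 without Vehicle 1 or Vehicle 3 and 8 without Vehicle 5) and 1 higher, and the formin Diaph1 fell by 0.68 ± 0.17 (adjusted p = 0.0068). Tubulins agreed at -0.32 (-0.58 and -0.13; corrected -0.60 and -0.27), with 2 of 16 higher and 1 lower, Tuba1a, by 0.54 ± 0.12 (adjusted p = 0.0037), a gene with close relatives. Dyneins had opposite medians (-0.26 and 0.10), with 0 of 20 higher and 3 lower, among them the heavy chain Dync1h1 by 0.60 ± 0.10 (adjusted p = 0.00089).

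**Figure D5:**
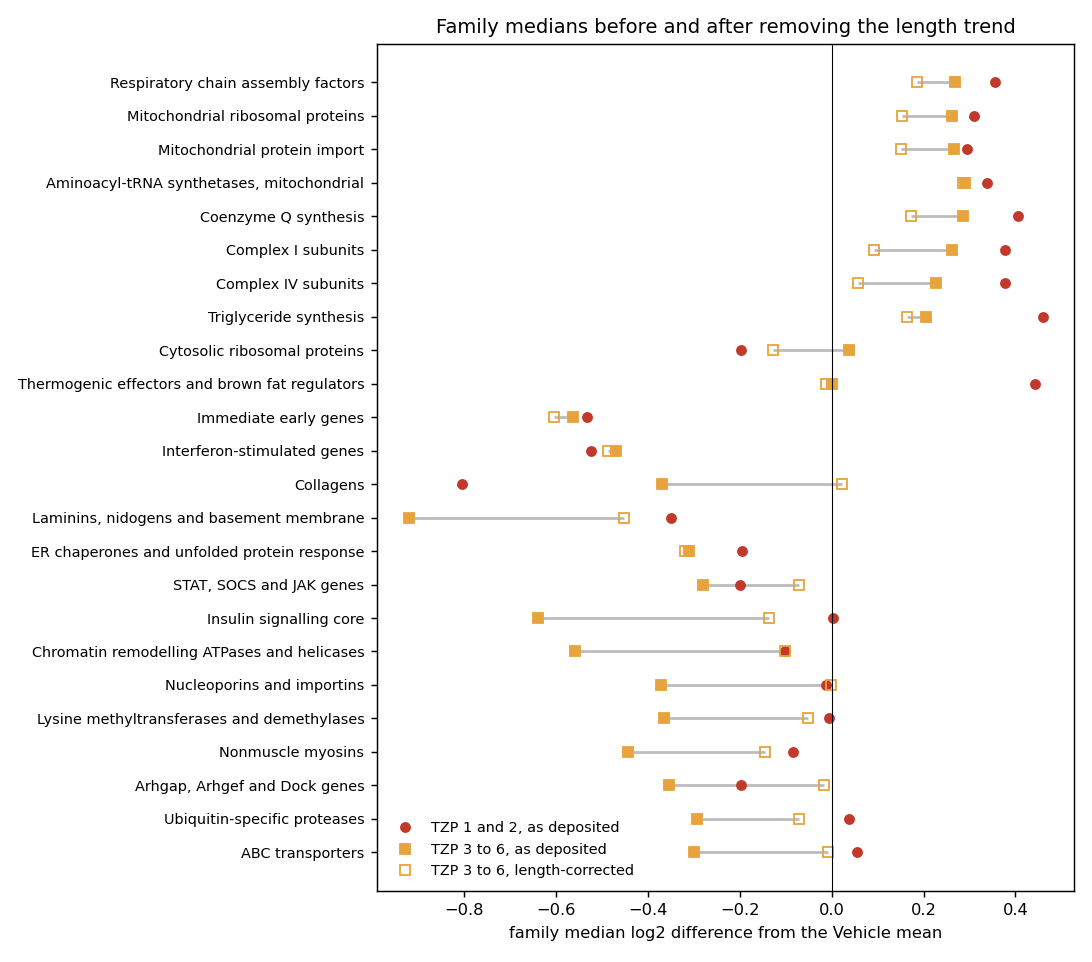
Family medians of the log2 difference from the Vehicle mean (horizontal axis) over TZP 1 and 2 as deposited (circles) and over TZP 3 to 6 as deposited (filled squares) and after the smooth correction for transcript length (open squares). Over TZP 3 to 6 the immediate early genes are at -0.56 as deposited and -0.61 after correction, while the collagens, at -0.37 as deposited, are at 0.02 and the nucleoporins, also at -0.37, at -0.00197 after correction.

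The remaining enzyme and cell fate families were small. Cytochrome P450 genes agreed at 0.15 (0.20 and 0.22; corrected 0.20 and 0.10), with 4 of 18 higher and 1 lower. Cyp2b10, a xenobiotic-inducible oxidase with close relatives, ran from 4.36 through 5.54 to 6.16 in TZP and from 1.69 through 2.93 to 3.88 in Vehicle and rose by 2.43 ± 0.54 without overlap (adjusted p = 0.004; 2.79 and 2.24). Aldehyde and short-chain dehydrogenases agreed at 0.15 (0.14 and 0.17; corrected 0.15 and 0.07), with 8 of 39 higher (5 without TZP 4, Vehicle 3 or Vehicle 6), among them Dhrs11 by 0.56 ± 0.10 (adjusted p = 0.0011), and 0 lower. Sirtuins and NAD synthesis agreed at 0.19 (0.16 and 0.13; corrected 0.16 and 0.05), with 7 of 23 higher, among them the desuccinylase Sirt5 by 0.60 ± 0.12 and Naprt by 0.54 ± 0.12 (adjusted p = 0.0022 and 0.0031), and 1 lower. Carbonic anhydrases reached 0.1 only over TZP 1 and 2 (0.33 and 0.01), with 3 of 11 higher and 0 lower: the membrane enzyme Car14 ran from 4.30 through 4.80 to 5.31 in TZP and from 2.92 through 3.40 to 4.27 in Vehicle and rose by 1.39 ± 0.26 (adjusted p = 0.0015; 1.78 and 1.20), and Car2 rose by 0.57 ± 0.13 (adjusted p = 0.0048).

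S100 and annexin genes agreed at -0.22 (-0.32 and -0.17; corrected -0.37 and -0.30), with 1 of 19 higher and 2 lower. Targets of p53 agreed at -0.23 (-0.15 and -0.27; corrected -0.12 and -0.21), with 5 of 19 lower (3 without TZP 4, TZP 5, TZP 6 or Vehicle 3), Btg2 among them, and 0 higher. Caspases and the BCL2 family reached 0.1 only over TZP 1 and 2 (-0.28 and -0.0989), with 2 of 34 higher and 5 lower (3 without Vehicle 1): the survival factor Mcl1 fell by 0.40 ± 0.11 and the caspase inhibitor Xiap by 1.59 ± 0.33 (adjusted p = 0.013 and 0.0024). Hypoxia targets reached 0.1 only over TZP 1 and 2 (0.19 and -0.08), with 2 of 23 higher and 2 lower. Higd1a, a mitochondrial protein induced by hypoxia, rose by 0.48 ± 0.08 (adjusted p = 0.00076; 0.59 and 0.43), and the oxygen-regulated factor Hif1a fell by 0.55 ± 0.14 (adjusted p = 0.0089; -0.08 and -0.78). Imprinted genes (0.02 and -0.05; 2 of 28 higher, 5 lower) and selenoproteins (0.07 and 0.04; 2 of 22 higher, 1 lower) reached 0.1 in neither; the growth restrainer Cdkn1c rose by 0.66 ± 0.14 (adjusted p = 0.0033).

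Some genes with large differences belong to none of the families. Higher without overlap were Mpzl2, a cell adhesion protein, by 0.87 ± 0.18, Tmem79 by 0.86 ± 0.20 and the prostaglandin synthase Ptgds by 0.82 ± 0.18 (adjusted p = 0.0021, 0.0052 and 0.0034), with 1.06, 0.72 and 0.76 over TZP 1 and 2. Lower without overlap were the repressor Bach1 (-1.96 ± 0.29), the endothelial junction gene Jcad (-1.85 ± 0.34), the linker Plec (-1.73 ± 0.24), the scaffold Iqgap1 (-1.68 ± 0.27) and the chromatin cofactor Hcfc1 (-1.62 ± 0.32) (adjusted p = 0.00044, 0.0013, 0.00036, 0.00064 and 0.0019). Over TZP 1 and 2 these stood at -0.92, -0.47, -1.01, -1.16 and -0.21. For a further pair of genes TZP 1 and 2 had the opposite sign: Trak2, a mitochondrial transport adaptor, had 6.26 and 6.47 in TZP 1 and TZP 2, 3.58 to 4.72 in TZP 3 to 6 and 6.12 to 6.48 in Vehicle. Zfhx2os had 6.47 and 6.10 in TZP 1 and TZP 2, 0.78 to 4.53 in TZP 3 to 6 and 5.71 to 6.35 in Vehicle, and since strandedness is not given, its reads and those of Zfhx2 cannot be told apart. Their differences over all TZP libraries, -1.30 ± 0.33 and -2.40 ± 0.64 (adjusted p = 0.0086 and 0.01), therefore rest on TZP 3 to 6.

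Across 27 settings of the test, 86 genes were called in each, 59 higher and 27 lower. Among those named above were Mcee, Prodh, Ttc19, Mrps27, Ucp1, Smarcd1, Polr2k and Gsk3a, which rose, and Junb, Col8a1, Sparc, Cldn5, Csf1, Il4ra, Ugcg and Zfp518b, which fell.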

How the data were processed

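PolyA RNA of brown adipose tissue was sequenced, with TRIzol and column extraction per the labels' protocols. Cutadapt 1.9.1 and GSNAP are named in the submitters' processing notes without their roles; genome build, annotation, counter and strandedness are not given in the sources used here. Values deposited for 23017 genes were taken as log2 values that the authors summarised per gene. The log2 scale, an offset near 1 that understates changes of weakly expressed genes, and quantile normalization were inferred from the values, and read totals are unknown. Falls that reach values of few reads in some TZP libraries, as in Ern1, Edem3, Notch1, Slc4a1 and Zfhx2os, are uncertain in size.

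The values were used as deposited. The 25% of genes with the lowest mean (5754) were left out. Limma 3.58.1 in R 4.3.3 was fitted to all 24 libraries with a mean per group and a mean-variance trend, and adjusted p is the two-sided Benjamini-Hochberg value over 17263 genes, with a threshold of 0.05. Transcript lengths are the longest GENCODE M21 transcript, known for 15407 genes (89.2%). Length correction subtracted from each library a smooth curve fitted to its deviation from the mean of all libraries. On simulated data for TZP against Vehicle with 17263 genes, log2 changes of 1 and of 0.5 were given to 100 genes each. Of these, 75% of log2 changes of 1 and 36% of 0.5 were called, and 4.31% of calls were false. These rates describe the simulated data only. Whether they hold for the deposited values was not tested, given the length trend and the wider TZP spread of genes such as Notch1. Figures used matplotlib 3.10.9 in Python 3.11.15.

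The 125 gene families, their members and the comparison were chosen with earlier results of these data known; 124 had tested members. Genes were named by a rule. Gipr, Ucp1, Mcee and Slc2a4 were picked in advance. To these were added genes with the largest differences without overlap, the called members of each family with the smallest p, and genes that reverse between TZP 1 and 2 and TZP 3 to 6. Some genes the rule gives are not reported here. Apart from Gipr, those printed were called in each of the 12 fits that left out 1 library. Alternatives were other filters, offsets, normalizations, thresholds, variance models, covariates, a replicate block and length corrections.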

Additional observations from a re-analysis of the deposited data

Results flagged for a closer look

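Among 682 groups of 6 libraries examined, each a library property, a family median or a named gene in TZP or in Vehicle, 25 held a library whose gap to its nearest neighbour exceeded the critical share of the group's range in Dixon's test. Chance gives such a gap in about 1 of 20 groups. Vehicle 5 was that library in 13 of the 25, TZP 3 in 3, Vehicle 3, Vehicle 4, TZP 2 and TZP 4 in 2 each and TZP 1 in 1.

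TZP 3 stood apart in its skeletal muscle mean of 1.11, against 6.18 to 8.77 in the other TZP libraries, in its skeletal muscle family median of -5.09 and in its Schwann cell and nerve median of -0.66. In TZP 2, Mrps23 was at 5.33 and Zfp518b at 3.54; in TZP 4, Slc25a48 was at 6.78 and Tmem79 at 8.24; in TZP 1, Cdkn1c was at 5.96.

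Vehicle 5 stood apart in family medians of -0.0962 for facilitative glucose transporters, 0.0757 for MAP kinases and dual specificity phosphatases, 0.17 for TRP, calcium and sodium channels, -0.0980 for DEAD and DEAH box helicases and -0.11 for dyneins. Its values were highest for Atg4d (6.58), Btg2 (9.67) and Twnk (5.93), and lowest for Hif1a (6.76), Mrc1 (6.41), Pdgfra (3.84), Sf3b1 (6.90) and Tbc1d1 (4.16). Vehicle 3 was apart in the tubulin median of 0.18 and in Smad1 at 6.43, and Vehicle 4 in the value of 1 read, 1.55 against 0.853 to 1.10 in the other Vehicle libraries, and in Gipr at 3.50. What sets these libraries apart was not tested.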

How the results depend on the processing

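Of the 3805 called genes, 2021 higher and 1784 lower, numbers changed beyond 1.5 times under the following alternatives, the cause not being tested unless fewer libraries or a stricter threshold is the change itself. With the 12 TZP and Vehicle libraries alone, 2514 genes were called, 1109 of them lower. At an adjusted p of 0.01 there were 1620, 720 higher and 900 lower. With TZP 1 and 2 alone there were 817, 544 higher and 273 lower, and with smooth-curve length correction as well 861, 554 higher and 307 lower. The same correction with TZP 3 to 6 alone gave 1341 higher. The length slope as covariate left 203, 144 higher and 59 lower, and the value of 1 read left 864 higher. Leaving out each library in turn gave 2739 to 4494 called, 1306 (without Vehicle 3) to 2406 higher and 1329 to 2088 lower. The difference in length slope, -0.110, was -0.0252 with TZP 1 and 2 alone.

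The remaining alternatives kept these counts within 1.5 times. Library numbers do not pair the libraries: deviations of same-numbered TZP and Vehicle libraries correlated at -0.062 to 0.283, 2 of 6 best with their own number. With the replicate block 3549 genes were called, 1861 higher and 1688 lower, and each of the 213 named genes called without the block was called with it.

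Named genes changed sign in 13 cases. With the length slope as covariate, differences turned to 0.0805 for Gbp7, 0.0548 for Hif1a, 0.17 for Lpin2, 0.18 for Nup153, 0.0797 for Plin4, 0.28 for Trak2 and 0.49 for Zfhx2os. With TZP 1 and 2 alone they were 0.10 for Trak2 and 0.15 for Zfhx2os, and with length correction as well 0.0495 for Lpin2, 0.0439 for Plin4, 0.19 for Trak2 and 0.17 for Zfhx2os. Without a known read depth no limit of detection can be given.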
